A study of Homo sapiens with 2 samples.

Results

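The enzymes that make asparagine and proline, move amino groups on and off glutamate and turn oxaloacetate into phosphoenolpyruvate were compared between U87 cultures given 20 µM LXR623 for 24 h and cultures given only the solvent (0.1% DMSO). U87 is a long-established cell line from a human glioblastoma. LXR623 is a synthetic agonist of the liver X receptors (LXR), nuclear receptors that sense oxidised cholesterol. Both cultures were in medium with 1.5% serum, and each gave RNA for 1 array, so n = 1 per group. Without replicates no difference has a replicate check or a test, the number of arrays limits the precision, and each value describes these 2 arrays. The 8 genes (ASNS, GPT2, GOT1, GOT2, PYCR1, ALDH18A1, PCK2 and BCAT1) were taken by symbol for their place in the pathway, with earlier results of these data known, and make up 8 of 23093 named genes on the array. Each had 1 probe set, and all 8 passed the filter on level (mean log2 value of at least 3.39), as did 17435 genes in all.

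Glutamate stands at the centre of these reactions. Aminotransferases pass its amino group to pyruvate, oxaloacetate or branched-chain keto acids and back, so that alanine, aspartate and the branched-chain amino acids exchange nitrogen with it. ASNS builds asparagine from aspartate with nitrogen from glutamine, and proline is made from glutamate by ALDH18A1 followed by a PYCR reductase. Several of these genes are known targets of ATF4, the transcription factor of the integrated stress response, which raises genes for amino acid supply, and in glioblastoma BCAT1 is known for its high expression in tumours with wild-type IDH1.

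On the LXR623 array 5 of the 8 genes were at least 1.5-fold higher than on the control array, namely ASNS, PCK2, PYCR1, BCAT1 and GPT2, and 0 were at least 1.5-fold lower. The same size was reached upwards by 2.39% of all kept genes and downwards by 1.97%, a comparison that describes genes chosen with such results in view. ALDH18A1 was 1.41-fold higher, and GOT1 and GOT2 had nearly the same value on both arrays. The median difference of the 8 genes was 0.71 on the log2 scale (LXR623 minus control, as for every difference here), beside 0.00 over all kept genes. In RNA from a whole culture, more RNA per cell and more cells that express a gene cannot be told apart.

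To show the sequence upstream of these genes, promoter windows were taken from RefSeq (GRCh38.p14), each with 250 bases before and 50 after an annotated transcription start. The table held 11 windows for 6 of the genes, and GPT2 and PYCR1 were not among them. The windows were searched on both strands for TGATGNAA, the core of the C/EBP-ATF response element that ATF4 binds with a C/EBP partner, for the E-box CACGTG, which MYC and related factors bind, and for a direct repeat of AGGTCA with a spacer of 4 bases, the type of element that LXR binds with RXR. The first motif was found in a window of ASNS, of BCAT1 and of GOT1, which is 3 of the 6 genes, beside 4.46% of all 27305 genes in the table. By window it was found in 3 of the 11, beside 3.62% of all 35116 windows. The genes were chosen with earlier results known and several are known ATF4 targets, so both comparisons only describe the genes chosen. The 4 windows below show these 3 matches and the window of PCK2, in which no match was found. TGATGNAA on either strand and CACGTG stand in capitals.
ASNS, chr7:97872359-97872658, minus strand: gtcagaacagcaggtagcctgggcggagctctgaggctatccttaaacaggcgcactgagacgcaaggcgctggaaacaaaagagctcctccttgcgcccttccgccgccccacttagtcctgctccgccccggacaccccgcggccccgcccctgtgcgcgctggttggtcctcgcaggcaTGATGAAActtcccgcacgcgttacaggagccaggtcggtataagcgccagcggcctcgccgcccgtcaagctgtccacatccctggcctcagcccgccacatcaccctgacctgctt
BCAT1, chr12:24949052-24949351, minus strand: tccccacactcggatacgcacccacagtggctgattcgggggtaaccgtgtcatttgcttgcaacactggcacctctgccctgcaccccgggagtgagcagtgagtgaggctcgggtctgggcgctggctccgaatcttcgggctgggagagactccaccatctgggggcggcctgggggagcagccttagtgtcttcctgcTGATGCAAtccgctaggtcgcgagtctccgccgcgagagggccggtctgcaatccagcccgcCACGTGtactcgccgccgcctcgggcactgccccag
GOT1, chr10:99430575-99430874, minus strand: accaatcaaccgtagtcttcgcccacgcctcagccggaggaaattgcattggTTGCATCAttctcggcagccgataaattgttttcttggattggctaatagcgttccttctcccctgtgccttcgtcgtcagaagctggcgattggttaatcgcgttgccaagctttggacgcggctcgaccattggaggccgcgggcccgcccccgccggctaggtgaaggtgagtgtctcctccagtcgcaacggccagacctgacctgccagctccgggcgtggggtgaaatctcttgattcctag
PCK2, chr14:24094061-24094360, plus strand: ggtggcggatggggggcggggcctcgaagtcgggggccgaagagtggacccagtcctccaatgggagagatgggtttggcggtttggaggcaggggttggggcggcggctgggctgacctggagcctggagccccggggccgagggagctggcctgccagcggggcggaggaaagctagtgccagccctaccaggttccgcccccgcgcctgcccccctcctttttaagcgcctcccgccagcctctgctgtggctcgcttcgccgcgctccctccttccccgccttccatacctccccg

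In ASNS the motif read TGATGAAA and lay at positions -68 to -61 relative to the start. In BCAT1 it read TGATGCAA, at -48 to -41 in 1 of the 5 windows, and in GOT1 it lay on the other strand (TTGCATCA in the sequence as printed), at -198 to -191. CACGTG was found in ALDH18A1, at -136 to -131, and in the same BCAT1 window, at positions 15 to 20. It was present in 7.26% of all windows and for 8.77% of all genes in the table. No window of the 6 genes held the AGGTCA repeat, which was present in 7 windows of the whole table (0.0199%). Only exact matches were searched and such a match is rare, so its absence says little about these genes. The 2 motifs did not overlap each other in BCAT1. A match is a string of letters and was not tested as a site. Genes with the ATF4-type motif (ASNS at 1.60, BCAT1 at 0.77 and GOT1 at 0.09) and without it (PCK2 at 1.07, ALDH18A1 at 0.49 and GOT2 at 0.02) were found among both large and small differences. A gene counted as without it had no exact match in the windows searched, which does not show that it lacks such a site. A link between the motif and the differences was not tested.

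ASNS, which forms asparagine and glutamate from aspartate and glutamine, was listed at a log2 value of 7.98 on the LXR623 array and 6.38 on the control array. It was thus 3.04-fold higher with LXR623 (difference 1.60) and ranked 14 of 17435 kept genes by difference. To give a measure of how far single genes vary, the kept genes were divided by mean level into 5 equal groups, and in the group that held ASNS the central 95% of differences ran from -0.54 to 0.50. ASNS lay outside it. RefSeq lists 5 pseudogenes of ASNS by symbol, so part of its signal may be shared with them.

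**Figure D1:**
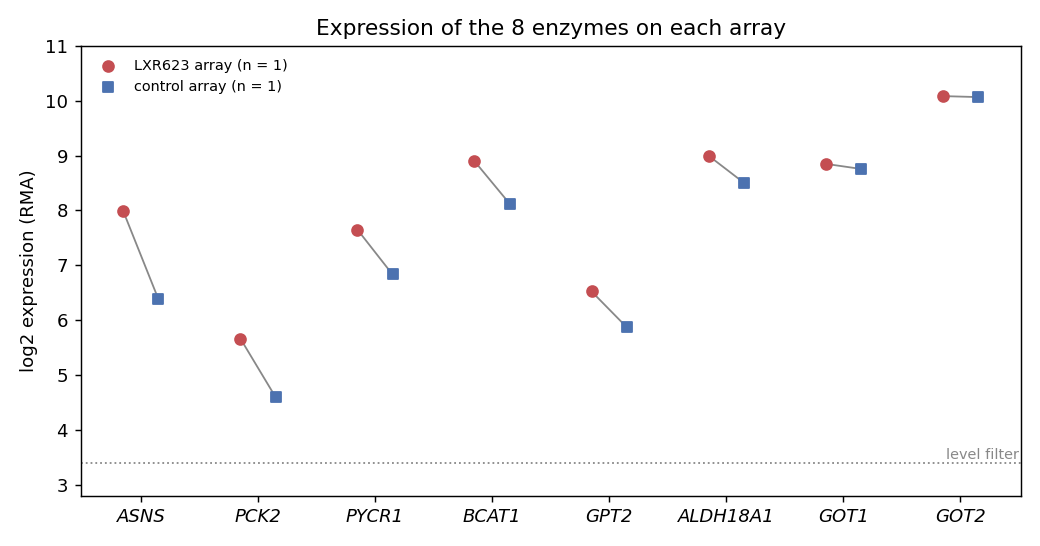
Log2 expression (RMA, vertical axis) of the 8 enzymes, with the LXR623 array as red circles and the control array as blue squares (n = 1 each). The steepest line joins the ASNS values of 7.98 and 6.38, and the GOT2 values of 10.09 and 10.07 lie almost level. Heights of different genes come from different probes and are not comparable.

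In proline synthesis, PYCR1, the mitochondrial reductase that completes proline, was listed at 7.65 on the LXR623 array and 6.83 on the control array, 1.76-fold higher with LXR623 (difference 0.82, rank 126). ALDH18A1, which reduces glutamate to the precursor of proline and ornithine, had 9.00 on the LXR623 array and 8.51 on the control array (difference 0.49, rank 727). PYCR1 lay outside the scatter of its level group (-0.54 to 0.50), whereas ALDH18A1 lay just inside that of its own (-0.46 to 0.54). PYCR1 and ALDH18A1 were thus both above 0, and 1 of them reached 1.5-fold. PYCR3, another PYCR reductase, differed by 0.11.

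PCK2, the mitochondrial enzyme that converts oxaloacetate to phosphoenolpyruvate, was listed at 5.66 on the LXR623 array and 4.60 on the control array. It was 2.09-fold higher with LXR623 (difference 1.07, rank 54), outside the range of -0.59 to 0.59 for its level group. ASNS and PCK2 were the 2 genes of the 8 that were at least 2-fold higher, a size reached by 0.333% of all kept genes. The control value of PCK2 lay below the median of all probe sets on that array (4.88), where RMA tends to shrink differences.

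Of the 4 aminotransferases among the 8 enzymes, BCAT1 and GPT2 were past 1.5-fold and GOT1 and GOT2 were not. BCAT1, the cytosolic enzyme that moves the amino group of leucine, isoleucine and valine onto α-ketoglutarate, had 8.90 on the LXR623 array and 8.12 on the control array, 1.71-fold higher with LXR623 (difference 0.77, rank 146). GPT2, the mitochondrial enzyme that makes alanine and α-ketoglutarate from pyruvate and glutamate, had 6.52 on the LXR623 array and 5.87 on the control array, 1.57-fold higher with LXR623 (difference 0.65, rank 274). Both lay outside the scatter of their level groups, which ended at 0.54 for BCAT1 and at 0.55 for GPT2. The GPT2 probe set had no name in the platform annotation and was named here by its gene identifier.

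GOT1 and GOT2 interconvert aspartate and glutamate in the cytosol and in mitochondria and form part of the malate-aspartate shuttle. GOT1 was listed at 8.85 on the LXR623 array and 8.76 on the control array (difference 0.09), and GOT2 at 10.09 on the LXR623 array and 10.07 on the control array (difference 0.02). Neither lay outside the scatter of its level group, and their ranks of 6184 and 8155 placed them in the middle of all genes. With each array centred on its median, which lowers every difference by 0.040, GOT1 was at 0.05 and GOT2 turned to -0.02, while the other 6 genes stayed above 0. RefSeq lists 7 pseudogenes of GOT2 by symbol, and part of its signal may come from them.

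Ordered by difference, the genes ran ASNS, PCK2, PYCR1, BCAT1, GPT2, ALDH18A1, GOT1 and GOT2. The step between ASNS and PCK2 was 0.54 and that between ALDH18A1 and GOT1 was 0.40. A robust SD of single-gene differences (from the width of their central 95%) among the 500 genes nearest in level to each enzyme was between 0.23 and 0.31, and these 2 steps were larger than it. The other steps were between 0.04 and 0.25. Neighbours in the order from PCK2 to ALDH18A1, and GOT1 and GOT2, were thus no farther apart than the SD at their levels. Genes farther apart in the order were not compared in this way. A step joins the differences of 2 genes and varies more than 1 of them, so this SD is only a rough measure for it.

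**Figure D2:**
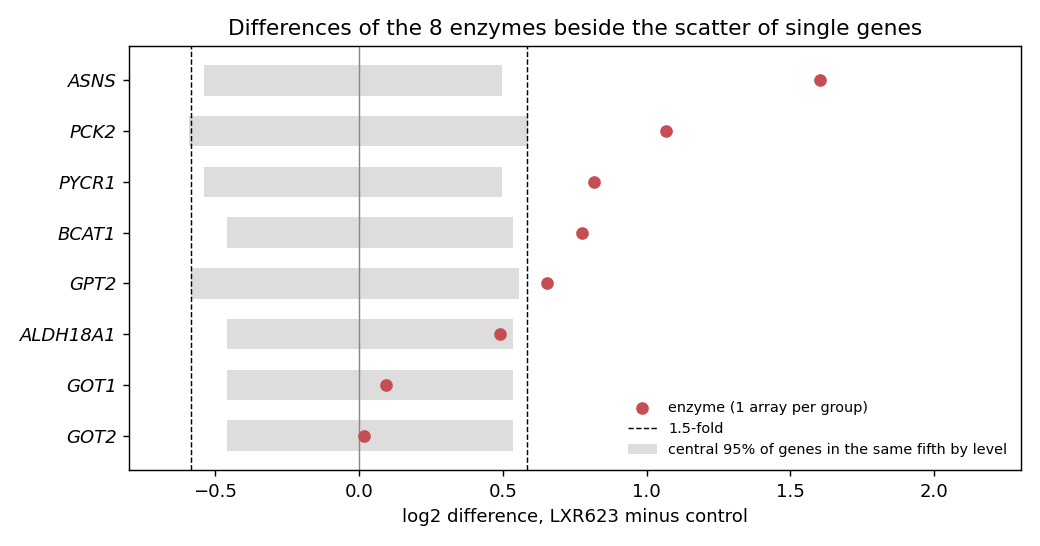
Log2 difference (LXR623 minus control, 1 array each, horizontal axis) of the 8 enzymes as red points, with grey bars for the central 95% of all kept genes in the same of 5 groups by mean level and dashed lines at 1.5-fold. The upper 5 points lie to the right of both bar and line, ALDH18A1 at 0.49 lies inside its bar, and GOT1 and GOT2 lie near 0.

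To see whether the enzymes differed from their counterparts in another compartment, isozymes were set side by side. PCK2 differed by 1.07 and the cytosolic PCK1 by 0.06, a gap of 1.00 between the 2 differences. BCAT1 differed by 0.77 and the mitochondrial BCAT2, with 6.07 on the LXR623 array and 6.17 on the control array, by -0.10, a gap of 0.87. PYCR1 differed by 0.82, while the cytosolic PYCR3, with 6.08 on the LXR623 array and 5.97 on the control array, was at 0.11. In each of these sets the partner lay inside the scatter of its level group. The cytosolic GPT was at 0.21, with 3.49 on the LXR623 array and 3.28 on the control array, and its mean fell below the level filter, so little can be read from it. For PCK1, which lay at 3.64 on the LXR623 array and 3.58 on the control array, the same caution applies, since it passed the filter narrowly. Of the pairs with both genes kept, the larger difference was that of the mitochondrial form for PCK2 and PYCR1 and of the cytosolic form for BCAT1, and GOT2 and GOT1 were 0.07 apart.

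**Figure D3:**
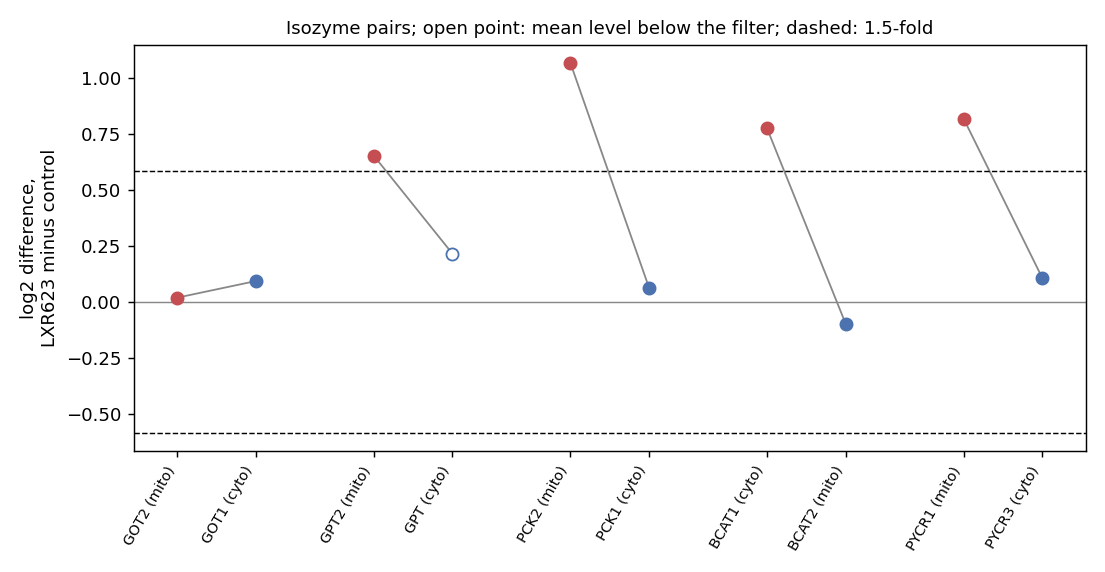
Log2 difference (LXR623 minus control, 1 array each, vertical axis) of isozyme pairs joined by lines, with the first gene of a pair in red and its partner in blue (mito, mitochondrial; cyto, cytosolic). PCK2 at 1.07 and PCK1 at 0.06 are farthest apart, and GOT2 and GOT1 lie together near 0. Open points mark genes below the level filter, and dashed lines 1.5-fold.

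Of the 7 kept genes of glutamine and glutamate metabolism, 4 were above 0 and 3 below, with a median of 0.09 and a mean of 0.00, and 0 reached 1.5-fold in either direction. OPLAH, which frees glutamate from 5-oxoproline, differed by -0.37, ALDH5A1 of the GABA shunt by 0.29 and GLUL, glutamine synthetase, by 0.25 (6.76 on the LXR623 array and 6.51 on the control array). OPLAH and ALDH5A1 were in the lowest level group and inside its scatter (-0.54 to 0.64). ALDH5A1, at 3.40 on the control array, lay close to the level filter. Glutamate dehydrogenase GLUD1 had no named probe set and was not analysed here. Its near-identical copy GLUD2, at -0.24, is uncertain, since its value of 3.32 on the LXR623 array lay below the level of the filter (3.39).

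The other genes around the 8 enzymes were read from 7 lists by reaction type. Outside the 8 enzymes the lists held 76 genes, of which 63 were kept. Their median difference was 0.04, with 35 above 0, 25 below and 3 at 0. Of all 17435 kept genes, 8514 were above 0, 8420 below and 501 at 0. At least 1.5-fold higher was 1 of them (1.59%, beside 2.39% of all kept genes), PSAT1, and 0 were at least 1.5-fold lower. PSAT1, the aminotransferase of serine synthesis, had 9.97 on the LXR623 array and 8.51 on the control array (difference 1.46, rank 20), which placed it between ASNS and PCK2.

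In the asparagine and aspartate list (10 kept genes, median 0.01), ASNS was the 1 gene to reach 1.5-fold. ASRGL1, which splits asparagine, was listed at 3.54 on the LXR623 array and 4.01 on the control array, a difference of -0.47. It was in the lowest level group and inside its scatter (-0.54 to 0.64). ASNSD1, which resembles ASNS in sequence, differed by -0.24, and ASS1 and ASL, which carry aspartate nitrogen into arginine, by 0.20 and 0.14. In the proline and ornithine list (9 kept genes, median 0.31), 8 were above 0 and 1 below. Without PYCR1 and ALDH18A1 the 7 others had a median of 0.13. Besides PYCR1 and ALDH18A1, the largest values were those of ALDH4A1, which oxidises the proline intermediate back to glutamate (5.33 on the LXR623 array and 4.92 on the control array, difference 0.41), and of PRODH2, which breaks down hydroxyproline (difference 0.35). Both lay inside the scatter of their level groups (-0.59 to 0.59 for ALDH4A1 and -0.54 to 0.64 for PRODH2). PRODH2 was in the lowest level group, with 3.95 on the LXR623 array and 3.61 on the control array. PEPD, which frees proline from dipeptides, differed by 0.31, and PRODH, which starts proline breakdown, was below the level filter.

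Of 14 kept aminotransferases, 12 were above 0 and 3 reached 1.5-fold, PSAT1, BCAT1 and GPT2. Of all 17435 kept genes, 8514 were above 0 and 8420 below, and 2.39% were at least 1.5-fold higher. BCAT1 and GPT2 were among the enzymes chosen with earlier results known. Without BCAT1, GPT2, GOT1 and GOT2, the 10 others had a median of 0.12, and 1 of them, PSAT1, reached 1.5-fold. The 11 aminotransferases short of 1.5-fold were between -0.17 and 0.26, with KYAT1 of tryptophan metabolism at 0.26 and AADAT of lysine and tryptophan metabolism at -0.17. In the breakdown of branched-chain amino acids, BCAT1 stood apart from the enzymes that follow it. The 18 other kept genes of that list had a median of -0.03 and ran from -0.23 for DBT, the core subunit of the branched-chain keto acid dehydrogenase, to 0.32 for PPM1K, the phosphatase that activates the complex. BCKDK, the kinase that switches the same complex off, differed by 0.30.

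Around PCK2, the 6 other kept genes of anaplerosis had a median of 0.06. The malate dehydrogenases MDH1 and MDH2 differed by 0.14 and 0.11, the mitochondrial malic enzyme ME2 by -0.11, and pyruvate carboxylase (PC) had 5.90 on both arrays. The value of PC was identical on both arrays, as for 1150 probe sets in all, so little can be read from its difference of 0. Of the 11 mitochondrial carriers of aspartate, glutamate, malate and related metabolites, 6 were above 0 and 5 below, and 0 reached 1.5-fold. The aspartate-glutamate carriers SLC25A13 and SLC25A12 differed by -0.27 and -0.23, the glutamate carriers SLC25A18 and SLC25A22 by -0.30 and 0.18, and the ornithine carrier SLC25A15 by -0.26. For the carriers the median was 0.00 and the mean -0.06, and for branched-chain breakdown the median was -0.00 and the mean 0.03, so neither list had a settled sign. Among the genes below the level filter, FOLH1, listed at 2.54 on the LXR623 array and 1.70 on the control array, was past 1.5-fold, and its value is uncertain at that level.

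**Figure D4:**
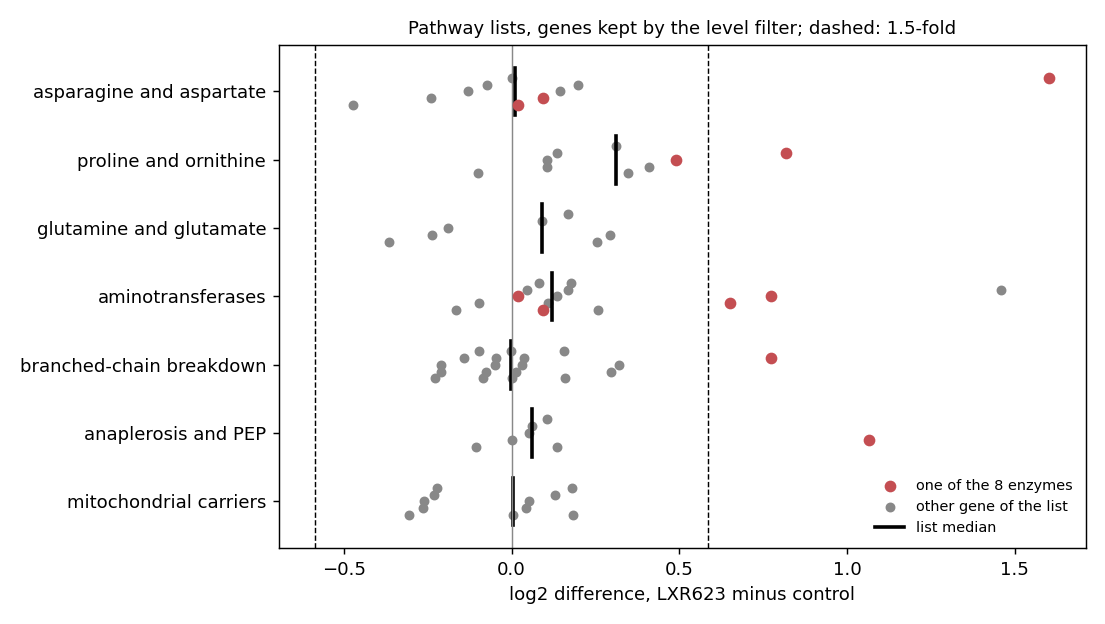
Log2 difference (LXR623 minus control, 1 array each, horizontal axis) of the kept genes in 7 pathway lists, with the 8 enzymes in red, other genes in grey, list medians as black bars and 1.5-fold as dashed lines. Genes in several lists are drawn in each. PSAT1 at 1.46 is the 1 grey point beyond 1.5-fold, and most others lie between -0.4 and 0.4.

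As a check of the treatment, the LXR target ABCA1, a cholesterol exporter, had 10.09 on the LXR623 array and 8.30 on the control array, and SREBF1, another LXR target, 7.32 on the LXR623 array and 6.41 on the control array. ATF4 itself was listed at 8.40 on the LXR623 array and 7.50 on the control array (difference 0.90), and its part in the values above was not tested. The culture text of the labels names the colon line HCT116 while all other labels name U87. The 8 mesenchymal glioma markers lay between 7.04 and 12.46 on the LXR623 array and between 7.64 and 12.09 on the control array, and the 10 colon epithelial markers between 3.48 and 5.67 on the LXR623 array and between 3.25 and 5.33 on the control array. These ranges come from different probe sets and cannot be set against each other, so they do not settle the line. The astrocyte markers S100B and AQP4 were below the level filter, and GFAP had 4.68 on the LXR623 array and 4.76 on the control array. Of the 4 kept astrocyte markers 1 was above 0 (OLIG2 at 0.36) and 3 below, and 1 was at least 1.5-fold lower, SLC1A3, which also imports glutamate and aspartate (6.87 on the LXR623 array and 7.76 on the control array). Of the 8 glioma markers 2 were above 0 (VIM at 0.36 and SPARC at 0.02, or -0.02 when centred) and 6 below, and 1 was at least 1.5-fold lower, CHI3L1 at -0.60, which was short of that size at -0.57 with the lowess curve on level removed. Of the 9 kept colon markers 5 were above 0 and 4 below, and 0 reached 1.5-fold, although EPCAM at -0.57 was at -0.61, past that size, with either other scaling. The part of these markers in the values above was not tested.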

How the data were processed

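Total RNA of U87 cells was biotin-labelled and hybridised to Affymetrix arrays, 1 per group, and each array took its group from its labels. Expression was deposited as 1 log2 value for each probe set, which per the labels the authors made by RMA (background subtraction, quantile normalisation and median polish) with affy 1.36.1 in R 2.15.1. Quantile normalisation removes shifts shared by most genes. The genome build was not given in the sources used here. Of 23786 probe sets, whose identifiers are gene identifiers, 22458 were named by the platform annotation, 635 by matching the identifier to RefSeq (GRCh38.p14), among them GPT2, and 693 were unnamed and left out. Array medians were 4.92 (LXR623) and 4.88 (control). The level filter required a mean log2 value at or above the 25th percentile of such means. The log2 difference was computed per gene, with 1.5-fold as the size for a count. With 1 array per group there was no test and no p-value. Correlation across kept genes was r = 0.989, and genes are not independent replicates.

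The genes and the lists were chosen with earlier results of these data known. Named were the 8 enzymes, their isozymes, every list gene past 1.5-fold and the 4 with the largest absolute difference in each list, and ABCA1, SREBF1 and ATF4; others, such as ASL, PEPD, AADAT, SLC25A22, PC, FOLH1 and the cell markers, were named after their values were seen. Some genes of the planned lists and pairs are not reported here and were left out of them. The planned comparison of protein sequences was not run. Alternatives were median centring, removal of a lowess curve on level (span 0.3), a level filter at the 50th percentile or none, 2-fold, the mean, leaving out the most extreme gene or sets of identical value, and, added after the data were seen, the platform's names only. The scalings and counts were tested on simulated arrays whose noise was smaller than the scatter seen here. Other steps, such as the promoter search, were not tested in this way. Python 3.11.15, numpy 2.4.6, pandas 2.3.3, statsmodels 0.14.6 and matplotlib 3.10.9 were used.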

Additional observations from a re-analysis of the deposited data

How the results depend on the processing

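The differences of the 8 enzymes moved by less than the scatter of single genes under both other scalings. Their count at 1.5-fold was 5 under both scalings and both filters, 4 when GPT2 was left out as not named by the platform annotation, and 2 at 2-fold. Their median lay between 0.65 (without ASNS) and 0.77 (platform names only). Among all kept genes, median centring gave 331 genes at least 1.5-fold higher and 439 lower, beside 416 and 344 without it. Of the pathway list values under the alternatives, 113 stayed close and 6 moved. Without a level filter 2 genes of the asparagine and aspartate list were at least 1.5-fold higher, since FOLH1 entered. At 2-fold the count was 0 for proline and ornithine, 1 for aminotransferases and 0 for branched-chain breakdown. With the mean in place of the median the value for aminotransferases was 0.26, and with the 50th percentile filter that for the carriers was -0.11. The cause of these shifts was not tested beyond the change in genes entered. Median centring put the medians of asparagine and aspartate (-0.03) and of the carriers (-0.04) below 0. Restricting the motif to TGATGCAA or TGATGAAA left 3 genes with a match. No paired analysis was possible because 1 array stood for each group. Changes in weakly detected genes are the least certain, and background signal could not be set beside these summarised values.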
